A study of Mus musculus with 4 samples.

Results

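The genes described here are those of the mouse major histocompatibility complex (MHC, called H2 in the mouse) and of antigen processing. They are every symbol of the gene list that starts with H2-, which gave 34 genes, and 12 further genes: B2m, Tap1, Tap2, Tapbp, Cd74, Ciita, Nlrc5, Psmb8, Psmb9, Psmb10, Psme1 and Psme2. The 46 members, of 31053 genes in the list, fall into 2 classical class I genes, 22 nonclassical class I genes, 5 genes of the class I light chain, peptide loading and regulation, 5 immunoproteasome genes, 11 class II genes and 1 gene that lies in the region without coding for an MHC molecule (H2-Ke6). The choice used gene names and no measured value, though earlier results of these data were known when it was made.

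The series holds transcriptomes of CD4 T cells from mice with graft-versus-host disease, in which transplanted donor T cells attack tissues of the recipient. The cells are given as BALB/c RAG2-/- TS1 Tg, so the CD4 T cells share the strain, the loss of RAG2 and the transgenic TS1 T cell receptor. Whether this genotype also holds for the few Epcam- or Lyz2-detected cells without Cd3 described below was not tested. There was no untreated group. They were isolated 4 weeks post-transplantation from spleen, colon, skin, small intestine epithelium and small intestine lamina propria, and the cells of these 5 compartments were pooled and captured in droplets for 10x Genomics 3' sequencing. An expression library and a hashtag library were made for each of 2 replicates. The labels do not say whether the replicates were separate animals, so any spread between them is that of 2 pooled libraries and may be technical. Each p-value comes from counts summed over the cells of a class, so it does not measure the spread between cells or animals. With 2 libraries the spread of a single gene is poorly known, and a very small p-value is not a measure of it.

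MHC class I molecules sit on nearly all nucleated cells, where a heavy chain and the light chain beta-2 microglobulin present peptides made by the proteasome, in its interferon-induced form the immunoproteasome, and pumped into the endoplasmic reticulum by the transporter TAP. MHC class II molecules present peptides from endocytosed protein to CD4 T cells and are found mainly on dendritic cells, macrophages and B cells, with the invariant chain Cd74 as their chaperone, and gut epithelium makes them under interferon-gamma. The transactivator Nlrc5 drives class I genes and Ciita drives class II genes, and mouse T cells are known to make class I and hardly any class II.

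The promoters of these genes are known for shared elements, and 4 are shown here because they belong to genes on which the results below turn, a classical heavy chain, a nonclassical heavy chain, the light chain and a class II chain. Each run ends at the annotated start and is written 5′ to 3′ on the gene's own strand, from RefSeq's promoters of GRCm38.p6 (mm10), at chr17:34000348-34000547 on the minus strand for H2-K1, chr17:35438955-35439154 on the plus strand for H2-Q7, chr2:122147487-122147685 on the plus strand for B2m and chr17:34287824-34288023 on the minus strand for H2-Aa. Capitals mark 4 motifs searched on both strands, the kappaB motif (GGGA, 4 bases of any kind, CC), the interferon-stimulated response core (GAAA, 2 bases of any kind, GAAA), the CRE core TGACG and the Y box CCAAT, and overlapping matches run together.
H2-K1: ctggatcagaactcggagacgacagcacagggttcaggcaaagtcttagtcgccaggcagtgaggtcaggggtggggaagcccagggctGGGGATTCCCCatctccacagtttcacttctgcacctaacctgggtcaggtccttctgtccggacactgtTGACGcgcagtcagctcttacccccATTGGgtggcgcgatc
H2-Q7: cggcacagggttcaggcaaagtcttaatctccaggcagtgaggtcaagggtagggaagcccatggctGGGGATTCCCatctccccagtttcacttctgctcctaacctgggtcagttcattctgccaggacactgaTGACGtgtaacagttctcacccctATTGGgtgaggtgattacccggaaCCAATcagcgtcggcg
B2m: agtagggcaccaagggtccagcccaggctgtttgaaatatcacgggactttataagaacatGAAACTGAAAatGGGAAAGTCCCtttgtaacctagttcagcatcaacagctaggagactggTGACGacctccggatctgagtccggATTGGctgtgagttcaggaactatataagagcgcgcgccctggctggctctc
H2-Aa: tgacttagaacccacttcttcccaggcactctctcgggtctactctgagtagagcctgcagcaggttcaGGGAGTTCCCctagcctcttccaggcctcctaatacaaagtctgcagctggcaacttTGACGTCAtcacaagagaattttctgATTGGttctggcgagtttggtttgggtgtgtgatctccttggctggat

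All 4 runs held a kappaB match, a CRE core and a Y box, and among them only B2m held the interferon-stimulated response core, which began 139 bases before the start. RefSeq's table held a promoter for 39 of the 46 members. In the 200 bases before the start, 31 of these 39 genes had a Y box, among them 19 of 22 class I heavy chain genes and 8 of 8 class II genes, against 29.3% of all 32851 promoters in the table. The kappaB motif was in 11 of the 39 (14.9% of all promoters), the CRE core in 15 (15.7%), the interferon-stimulated response core in 3 (2.27%), which were B2m, H2-T23 and H2-T22, and the GAS motif TTCNNNGAA in 1, Psmb8 (5.49%). A match describes these letters only, and a missing match does not show that an element with other letters is absent.

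The 2 expression libraries held 89427990 and 108082997 unique molecular identifiers (UMIs, each a counted RNA molecule). Cells are barcodes that reached 1000 UMIs and 500 genes with no more than 10% of UMIs from mitochondrial genes, which gave 19020 and 15898 cells with median depths of 2688 and 3699 UMIs. Each cell was thinned at random to 1500 UMIs so that detection means the same in every cell, which left out 3732 and 1043 shallower cells. Of the cells kept, 599 barcodes occurred in both libraries, 3.15% and 3.77% of their cells, and each comparison was also run without them. The chemistry has 6794880 barcodes, so independent draws would share far fewer. The origin of the overlap was not tested, and for these barcodes the 2 libraries are not shown to be independent. The hashtag libraries held 0 hashtag features, so no cell has a tissue and in each comparison below a difference in tissue of origin cannot be told apart from one between the cell classes. Cd3-detected cells, with at least 1 UMI of Cd3d, Cd3e or Cd3g, numbered 15169 and 14720 of 15288 and 14855 thinned cells. All levels are CPM, a gene's UMIs as a share of all UMIs on the usual CPM scale, in the sum of a class's thinned cells, given for replicate 1 and then replicate 2, and the 3' chemistry counts molecules without regard to transcript length.

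In Cd3-detected cells the classical class I heavy chains led the family. H2-D1 (chr17:35262730-35267499, plus strand) stood at 8313 and 7815 CPM, H2-K1 (chr17:33996017-34000347, minus strand) at 3666 and 3884 CPM, and the light chain B2m (chr2:122147686-122153083, plus strand) at 3030.2 and 2967 CPM. Each of the 3 was detected in nearly every cell, H2-D1 in 99.9% of cells of both libraries, H2-K1 in 98.1% (95% exact interval 97.9 to 98.3) and 98.6% (98.4 to 98.8), and B2m in 98.1% of both. Intervals of this kind cover counting error only. The order H2-D1, H2-K1, B2m was the same in both libraries, and the gaps were larger than the spread between them. Free RNA, the RNA of barcodes with under 100 UMIs, held 6793 and 6502 CPM of H2-D1, 3278 and 3396 CPM of H2-K1 and 2699 and 2520.2 CPM of B2m, each below the Cd3-detected cells of its library.

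Of the 22 nonclassical class I genes, which code for molecules with narrower or specialised ligands, 7 exceeded 50 CPM in both libraries. H2-Q7, whose product is known as a Qa-2 antigen, stood at 622 and 695 CPM. H2-Q4 followed at 474 and 495 CPM and H2-T23, which encodes Qa-1, the ligand of CD94/NKG2 receptors, at 447 and 465 CPM. The next were H2-T22, known as a ligand of some gamma-delta T cell receptors, at 334 and 337 CPM, H2-M3, which presents formylated peptides, at 121 and 122 CPM, H2-Q6 at 80.9 and 99.7 CPM and H2-Q10 at 57.9 and 75.5 CPM. H2-Q4 lay above H2-T23 in both libraries, by about the spread between them. At the other end, 9 genes (H2-M1, H2-M9, H2-M11 and the 6 of the H2-M10 group) had 0 UMIs in both libraries, which allows up to 0.132 and 0.136 CPM. H2-M10 and H2-M1 genes are known from the vomeronasal organ. The files' mm10 genome is of another strain with another H2 haplotype than BALB/c, and reads of a BALB/c gene absent from it can be lost or counted for a relative, so levels of single H2-Q and H2-D genes are uncertain. Within mm10 itself, 18.8% of the 50-base stretches in the last 500 bases of H2-Q1 transcripts also occurred in another member, 11.9% for H2-Q2, 6.27% for H2-K1, 5.10% for H2-Q6, 3.99% for H2-T23 and 2.00% for H2-D1, and none for any class II, Tap or immunoproteasome gene.

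The processing genes were all detected in Cd3-detected cells. Psmb8, a catalytic immunoproteasome subunit, stood at 907 and 895 CPM. The activator subunits Psme1 and Psme2 were at 655 and 654 and at 476 and 461 CPM, and the catalytic subunits Psmb9 and Psmb10 at 538 and 512 and at 217 and 229 CPM. Tapbp (tapasin, which bridges TAP and the heavy chain) and the transporter chains Tap1 and Tap2 lay between 176 and 194 CPM. The regulator Nlrc5 stood at 36.8 and 37.1 CPM, and H2-Ke6, a steroid dehydrogenase gene of the region, at 74.1 and 68.8 CPM.

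Class II genes were low in Cd3-detected cells and mostly no higher than in free RNA. Cd74 stood at 46.5 and 50.8 CPM against 93.3 and 103 CPM in free RNA. The peptide-binding chains H2-Ab1, H2-Aa and H2-Eb1 were at 35.0 and 36.7, at 10.7 and 14.9, and at 7.74 and 13.0 CPM, against 41.5 and 42.6, 22.5 and 36.0, and 16.6 and 13.5 CPM in free RNA. H2-DMa, a chain of the peptide exchange factor H2-DM, stood at 34.7 and 30.1 CPM against 38.7 and 37.9 CPM. Its partners H2-DMb1 and H2-DMb2 were at 2 CPM or less, H2-Oa at 5.58 and 4.44 CPM and Ciita at 1.41 and 1.54 CPM. A Cd74 UMI was found in 2.72% (2.46 to 2.99) and 2.67% (2.42 to 2.94) of Cd3-detected cells. Since Cd74 was higher in free RNA than in these cells, the share is not read as expression by T cells.

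A few cells carried a large share of the UMIs of some class II genes. Cd3-detected cells with 3 or more Cd74 UMIs, a limit set after the data were seen, numbered 66 and 39, or 0.435% and 0.265%. They held 55.6% and 68.2% of the H2-Aa UMIs of all Cd3-detected cells, 40.3% and 52.1% of those of H2-Eb1, and 54.5% and 46.4% of those of H2-DMb1. The share was lower for H2-Ab1, at 8.03% and 10.9%, and it was 1.90% and 2.26% for H2-DMa and 0.787% and 1.02% for H2-Oa. So H2-Ab1, H2-DMa and H2-Oa UMIs lay mostly outside these cells, while H2-Aa, H2-Eb1 and H2-DMb1 UMIs were concentrated in them. Without these cells H2-Aa fell to 4.77 CPM in both libraries, whereas H2-Ab1 stayed at 32.4 and 32.8 CPM. H2-D1 in the cells themselves was 5707 and 8393 CPM, below the other cells in replicate 1 and above them in replicate 2. The T cell receptor gene Trbc2 was lower in these cells, at 2414 and 2034 CPM against 4433 and 4397 CPM in the others. Trac was lower too, at 485 and 376 against 904 and 876 CPM. What kind of cells they are was not tested.

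**Figure D1:**
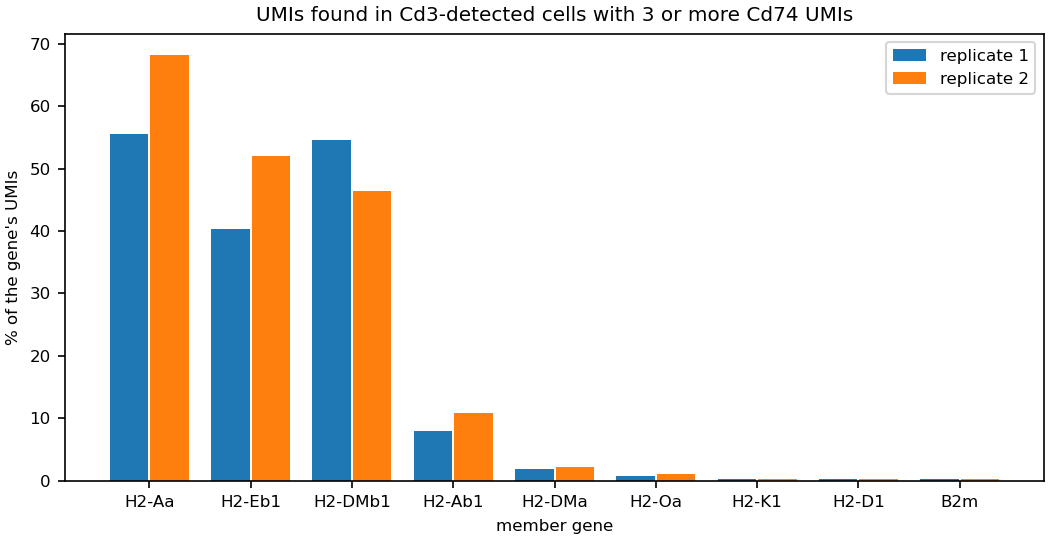
Percentage of each gene's UMIs in Cd3-detected cells that came from cells with 3 or more Cd74 UMIs, for 9 member genes (x axis), with 1 bar per replicate library. H2-Aa, H2-Eb1 and H2-DMb1 reach between 40.3% and 68.2%, H2-Ab1 8.03% and 10.9%, and the class I genes under 1%.

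Itgae encodes the CD103 integrin chain of T cells resident in epithelia, and Cd8a the CD8 alpha chain, which some intestinal CD4 T cells acquire. Cd3-detected cells with both (2279 and 2285 cells) were compared with cells with neither (8648 and 8840). Both classical heavy chains, 7 of 11 nonclassical ones tested, B2m, both transporter chains and 4 of 5 immunoproteasome genes were lower in the cells with both. Of 32 members that passed the low-count filter, 21 were lower and 4 higher by edgeR's quasi-likelihood test (adjusted p under 0.05 over all genes tested), where 22.5% of the 10826 genes tested were called lower, 17.2% higher and 39.7% in all. The median log2 fold change of the members was -0.34 and that of all genes tested -0.03.

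The level of H2-K1 was 2910.3 and 3221 CPM with both and 4037 and 4207 CPM with neither. For H2-D1 the levels were 6532 and 6280.4 against 9166 and 8487 CPM. The classes did not overlap for either gene, and the log2 fold changes were -0.43 ± 0.04 (SE, adjusted p = 5.2e-32) and -0.46 ± 0.03 (adjusted p = 2.8e-40). B2m was lower by less, at 2619.6 and 2668 against 3256 and 3109 CPM, a log2 fold change of -0.27 ± 0.04.

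Among 11 nonclassical genes tested, 7 were lower and 1 was higher. H2-Q10 had 33.3 and 37.9 CPM with both and 68.5 and 90.8 CPM with neither (log2 fold change -1.16 ± 0.09, adjusted p = 9.9e-33). The other Q-region genes with a level over 50 CPM with neither were also lower, H2-Q4 by -0.79 ± 0.05, H2-Q6 by -0.74 ± 0.08 and H2-Q7 by -0.63 ± 0.04 on the log2 scale. The T-region genes were closer together, with H2-T22 at -0.37 ± 0.05 and H2-T23 at -0.26 ± 0.05. The remaining gene called lower stood at a few CPM in both classes, so its call rests on few molecules. H2-M3 did not pass the threshold, at 131 and 118 CPM with both and 123 and 123 CPM with neither (log2 fold change 0.02 ± 0.07). H2-T3, which encodes the thymus leukaemia antigen, a ligand of CD8 alpha homodimers, was called higher on few molecules, 8 and 9 UMIs (2.34 and 2.63 CPM) with both against 6 and 13 UMIs (0.463 and 0.980 CPM) with neither, and free RNA stood at 1.73 and 2.32 CPM.

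The processing genes went the same way with exceptions. Tap1 was at 150 and 140.0 CPM with both and at 202 and 193 CPM with neither (log2 fold change -0.45 ± 0.06), and Tap2 and Nlrc5 were lower by -0.29 ± 0.06 and -0.50 ± 0.11. Tapbp, at 179 and 182 against 190 and 202 CPM, did not pass (adjusted p = 0.088). Of the immunoproteasome, Psme2 (-0.45 ± 0.05), Psmb8 (-0.26 ± 0.04), Psme1 (-0.25 ± 0.04) and Psmb9 (-0.18 ± 0.05) were lower. Psmb10 was called higher, by 0.14 ± 0.05, but stood at 0.01 (adjusted p = 0.87) after a second random thinning. H2-Ke6 was lower by -0.23 ± 0.08.

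Class II genes moved in both directions, with 3 of 8 tested called lower and 2 higher. Cd74 had 34.5 and 35.6 CPM with both and 44.5 and 56.7 CPM with neither (log2 fold change -0.53 ± 0.10), and -0.22 (adjusted p = 0.18) without cells with an Epcam or Lyz2 UMI. H2-Oa had 6 and 8 UMIs with both, at 1.76 and 2.33 CPM, against 7.32 and 5.13 CPM with neither. H2-DMb2 was called lower on 3 and 0 UMIs. H2-DMa was called higher, at 40.7 and 36.2 against 29.1 and 25.6 CPM (0.49 ± 0.11), and so was H2-Ab1, at 38.9 and 38.5 against 31.6 and 32.7 CPM (0.27 ± 0.11, adjusted p = 0.038), and in the cells with both neither gene exceeded its level in free RNA by more than the spread between libraries. H2-Aa and H2-Eb1 did not pass.

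**Figure D2:**
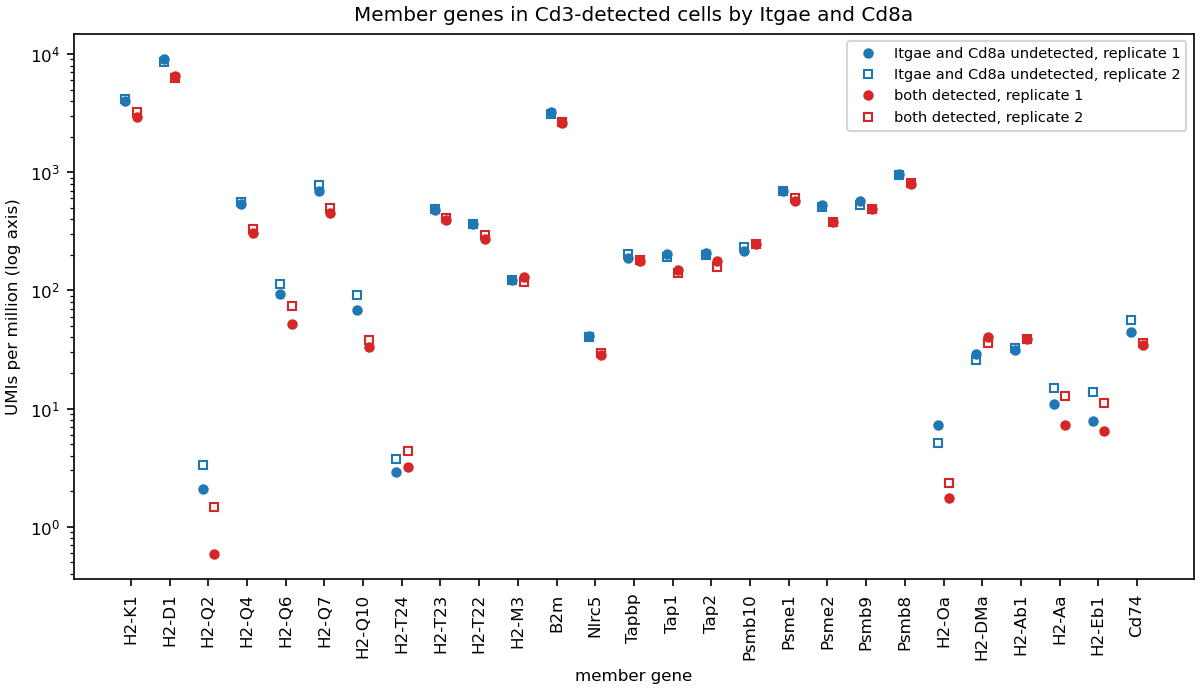
Levels in CPM (log axis) of the 27 members other than H2-Ke6 with at least 100 UMIs in Cd3-detected cells (x axis), in cells with neither Itgae nor Cd8a (blue) and with both (red), with a filled circle for replicate 1 and an open square for replicate 2. H2-D1 and H2-K1 lie highest, and the red points of H2-Q10 (33.3 and 37.9) lie below the blue ones (68.5 and 90.8).

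In cells with a UMI of only one of the pair, H2-D1, H2-K1, B2m and H2-Q10 lay between. H2-D1 stood at 9166 and 8487 CPM with neither, 8262 and 7594 with Itgae only, 7103 and 6813 with Cd8a only and 6532 and 6280.4 with both. H2-K1, H2-Q10 and B2m had the same order in both libraries. For H2-Q10 the single classes overlapped across libraries, at 52.5 and 73.2 CPM with Itgae only and 47.8 and 53.6 CPM with Cd8a only. Not every called member had this order. Psme1 was lowest with Itgae only, at 549 and 515 CPM against 566 and 605 CPM with both. Psmb10 was also lowest with Itgae only, at 174 and 182 CPM, and H2-Ab1 was highest there, at 51.6 and 54.0 CPM. The steps were not tested singly. A UMI of either gene can be missed in a thinned cell, so the single classes may include cells that have both. The part of such missed detection in the intermediate levels was not tested, so the order is not read as a graded change.

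**Figure D3:**
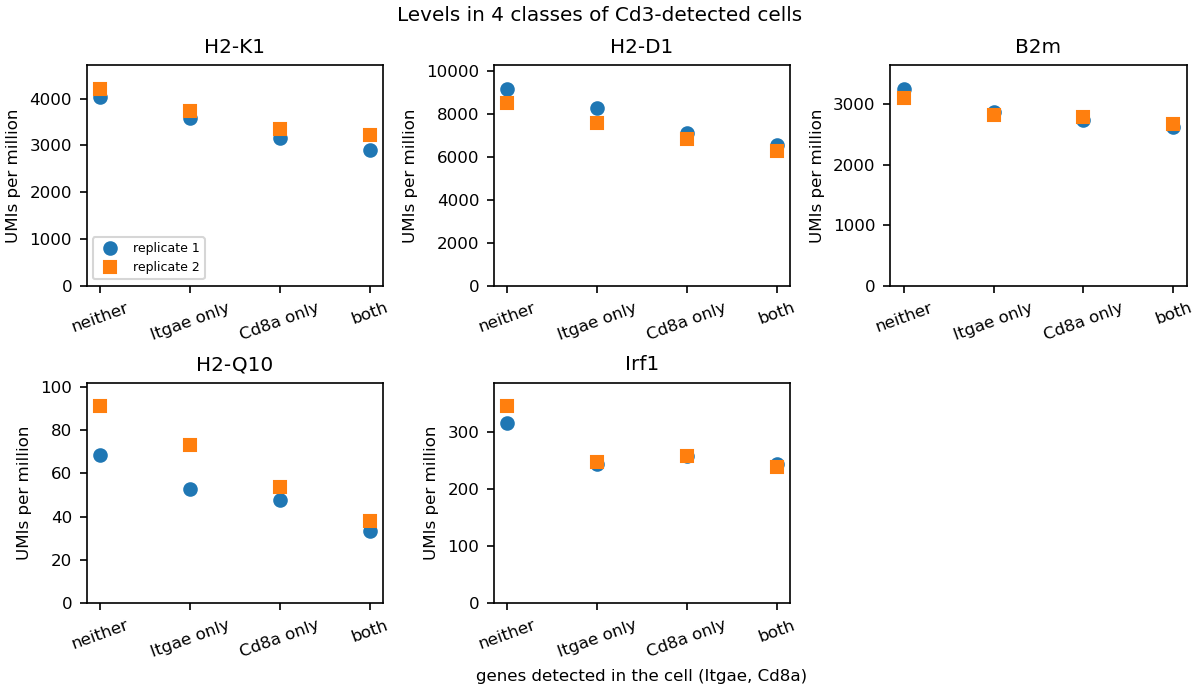
Levels in CPM (y axis, from 0) of 5 genes in Cd3-detected cells by detection of Itgae and Cd8a (x axis), with 1 point per replicate library. H2-K1, H2-D1, B2m and H2-Q10 fall from neither to both, and Irf1 is highest with neither (317 and 346). Detection is that after thinning, so the single classes may include cells that have both.

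Of the 34 genes of a fixed list for interferon signalling, class II regulation, peptide handling and costimulation, 31 were tested, and 5 were higher and 9 lower with both. With 39.7% of all genes called in this comparison, the count is not read as a result about the list. Irf8, an interferon-regulated transcription factor, had 12.6 and 10.8 CPM against 45.4 and 47.3 CPM (log2 fold change -1.99 ± 0.14). Socs1, a feedback inhibitor of interferon signalling, was lower by -1.39 ± 0.07, and Ifngr1, the ligand-binding chain of the interferon-gamma receptor, by -1.33 ± 0.06 (137 and 105 against 308 and 300.5 CPM). Cd40 was lower by -1.30 ± 0.48 on 7 and 2 UMIs. Irf1, a direct activator of class I genes picked after its values were seen, was lower (-0.45 ± 0.05).

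Other genes also moved with this split. The constant segment Trac had 1204 and 1079 CPM with both against 799.6 and 795 CPM, Tcrg-C4 419 and 469 against 57.5 and 60.7 CPM, Trdc 167 and 186 against 286 and 312 CPM, Cd8b1 97.1 and 89.0 against 27.9 and 25.8 CPM, and Cd4 212 and 226 against 196 and 205 CPM. The 7 neutrophil markers, all detected in both classes, summed to 454 and 395 CPM with both and 1247 and 2281 CPM with neither, and 11 epithelial markers to 43.3 and 52.5 against 88.6 and 57.0 CPM. Without cells with an Epcam or Lyz2 UMI, 24 of the 25 calls remained, and the part of the receptor genes in the result was not tested. By DESeq2's Wald test 13 members were lower and none higher (18 members at an unadjusted p under 0.05), where 13.1% of all genes tested were called. With cells thinned to 1000 UMIs 16 were lower and none higher (23 unadjusted), where 18.6% of all genes tested were called.

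Tcf7 encodes TCF-1, the transcription factor of stem-like and progenitor T cells. Cells with a Tcf7 UMI (948 and 910 cells) were compared with the other Cd3-detected cells (14221 and 13810). In them 5 class I heavy chains and Psmb8 were slightly higher. Of 33 members tested, 7 were higher and 2 lower, where 4.31% of 11217 genes were called higher, 5.16% lower and 9.48% in all, and the median log2 fold change was 0.09 for members and -0.01 for all genes.

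H2-D1 stood at 9226 and 8407 CPM with Tcf7 and 8252 and 7776 CPM without, a log2 fold change of 0.12 ± 0.02 (adjusted p = 7.2e-05). H2-K1 stood at 4027 and 4062 against 3642 and 3872 CPM (0.09 ± 0.03, adjusted p = 0.018). In each library the Tcf7-detected class was the higher one, and the changes were of the size of the spread between libraries. H2-K1 lost its call by DESeq2 (adjusted p = 0.18). By edgeR H2-K1 also lost it without the library as a block (adjusted p = 0.59) and at 1000 UMIs a cell (0.61). The same held without the 8% of cells with the most UMIs (0.14) and without cells with an Mki67 or Top2a UMI (0.21). By edgeR H2-D1 lost its call without the block (adjusted p = 0.46) and at 1000 UMIs a cell (0.081). H2-D1 kept it by DESeq2's Wald test (adjusted p = 0.0044). H2-Q4 and H2-Q7 were higher by 0.17 ± 0.05 and 0.17 ± 0.04, H2-Q10 by 0.31 ± 0.10 and Psmb8 by 0.13 ± 0.04 on the log2 scale. By DESeq2's Wald test H2-Q4 (adjusted p = 0.24), H2-Q7 (0.12), H2-Q10 (0.71) and Psmb8 (0.24) lost their calls. H2-Oa, known as part of an inhibitor of H2-DM in B and dendritic cells, was higher on 14 and 13 UMIs (9.85 and 9.52 against 5.30 and 4.10 CPM). After a second random thinning H2-Oa (0.46 ± 0.41, adjusted p = 0.62), H2-Q7 (0.11, adjusted p = 0.086), H2-Q10 (0.25, adjusted p = 0.16) and H2-Aa (-0.60, adjusted p = 0.20) did not pass.

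None of B2m, Tapbp, Tap1, Tap2 and Nlrc5 passed, of which Tap1 was nearest at 0.17 ± 0.07 (adjusted p = 0.093). Cd74 was lower, at 23.2 and 27.8 against 48.0 and 52.3 CPM (-0.997 ± 0.15), as was H2-Aa on 8 and 9 UMIs (-1.13 ± 0.33). Without thinning Cd74 was lower by -0.28 ± 0.04 and H2-Aa lost its call (-0.27, adjusted p = 0.16), and with 1000 UMIs a cell both lost theirs (-0.62, adjusted p = 0.060, and -0.15, adjusted p = 0.92). With the cells of 3 or more Cd74 UMIs left out, H2-Aa had an adjusted p of 0.82. Of 31 genes of the pathway list tested, against 9.48% of all genes called, Socs1 (0.58 ± 0.07), Ctss (0.45 ± 0.11), a lysosomal protease that trims the invariant chain, and Ifngr1 (0.32 ± 0.06) were higher, and Irf8 (-0.55 ± 0.16) was lower. Without the library as a block 1 member was called, by DESeq2 2, and with 1000 UMIs a cell 1 (5, 7 and 6 at an unadjusted p under 0.05). Of all genes tested 1.96%, 2.61% and 3.96% were called in the same settings.

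Ifng encodes interferon-gamma, the main inducer of MHC genes. Cells with an Ifng UMI (6828 and 7145) were compared with Cd3-detected cells without one (8341 and 7575). Both classical and 6 of 11 nonclassical heavy chains tested were higher in the Ifng-detected cells, and the catalytic immunoproteasome subunits did not pass. Of 33 members tested, 12 were higher and 4 lower, where 7.89% of 11254 genes were called higher, 6.15% lower and 14.0% in all. The median log2 fold change was 0.05 for the members and -0.00 for all genes.

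H2-D1 had 8777 and 8216 CPM with Ifng and 7932 and 7436 CPM without (0.19 ± 0.02, adjusted p = 5.9e-16), and H2-K1 3865 and 4075 against 3504 and 3703 CPM (0.18 ± 0.02, adjusted p = 7.6e-15). Each class pair had the same order in both libraries. Of the nonclassical genes, H2-Q10 was higher by 0.39 ± 0.06, H2-Q7 by 0.30 ± 0.03, H2-Q6 by 0.30 ± 0.05, H2-Q4 by 0.24 ± 0.03, H2-T23 by 0.21 ± 0.03 and H2-T22 by 0.13 ± 0.03, and none was lower.

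Nlrc5 was higher by 0.28 ± 0.08 (40.3 and 40.03 against 34.0 and 34.4 CPM), Tap2 by 0.17 ± 0.04, Psme2 by 0.11 ± 0.03 and B2m by 0.10 ± 0.02. Psmb8, Psmb9 and Psmb10 did not pass, with log2 fold changes of 0.00 ± 0.02, -0.03 ± 0.03 and -0.06 ± 0.03. Without normalization factors B2m (adjusted p = 0.058) and Psme2 (0.072) were lost, 10 members were higher and 6 lower, and of all genes called 37.2% were higher in place of 56.2%.

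**Figure D4:**
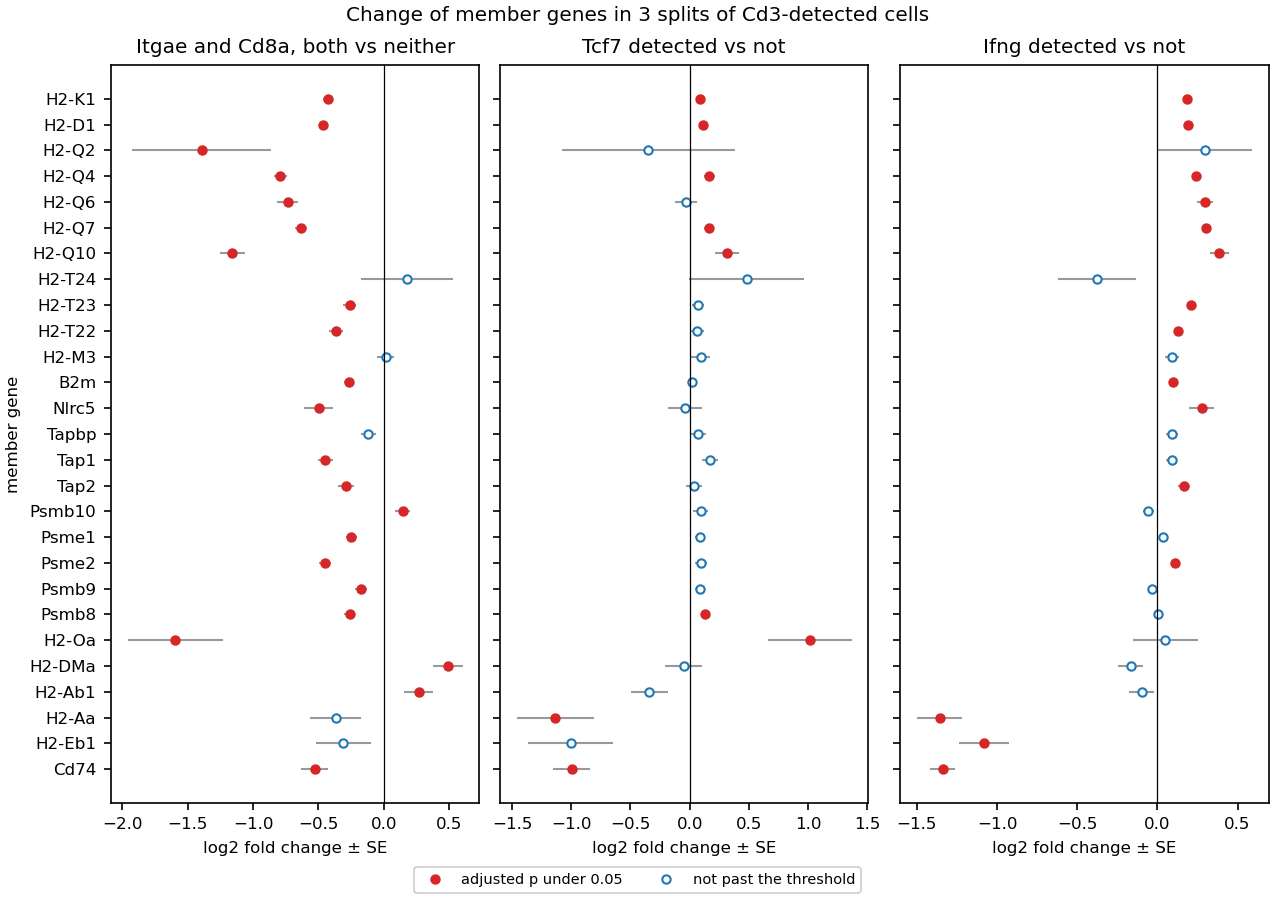
Log2 fold change ± SE (x axis) of the 27 members other than H2-Ke6 with at least 100 UMIs in Cd3-detected cells (y axis), for Itgae and Cd8a (both against neither), Tcf7 and Ifng (detected against not). Red points had an adjusted p under 0.05. H2-D1 lies at -0.46, 0.12 and 0.19 in the 3 panels, which have different x ranges.

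Of 9 class II genes tested 4 were lower with Ifng and none was higher. Cd74 had 31.4 and 21.2 CPM with Ifng and 58.7 and 78.7 CPM without (-1.34 ± 0.08), H2-Aa 8.10 and 5.60 against 12.8 and 23.8 CPM (-1.36 ± 0.14), and H2-Eb1 5.76 and 6.998 against 9.35 and 18.7 CPM (-1.08 ± 0.15). H2-DMb1 was called lower on 5 and 7 UMIs. With the cells of 3 or more Cd74 UMIs left out, H2-Aa had a log2 fold change of 0.18 ± 0.20 (adjusted p = 0.64) and H2-Eb1 of -0.14 ± 0.19 (adjusted p = 0.73), while 12 members were still called higher. Cd74 itself cannot be compared after cells are left out by its own count. H2-Ab1 and H2-DMa did not pass in the full comparison, at -0.10 ± 0.08 and -0.17 ± 0.08.

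Within the Itgae and Cd8a classes the same pairs can be read without a test. In cells with neither, H2-D1 was 9479.6 and 8718 CPM with Ifng and 8858 and 8230.2 CPM without. In cells with both, it was 6735 and 6658 CPM with Ifng and 6435 and 6060 CPM without. So the Ifng-detected cells had the higher H2-D1 level in all 4 pairs, and cells with Itgae and Cd8a stayed below cells with neither whether or not Ifng was detected. H2-Q10 had no such order within the cells with both, at 29.6 and 39.5 CPM with Ifng and 35.1 and 37.0 CPM without. H2-K1, H2-Q4, H2-Q7, H2-T23 and Psme2, also called higher with Ifng, were higher with Ifng in the cells with both in each library. H2-Q6, H2-T22, Nlrc5, Tap2 and B2m were not. B2m stood there at 2608 and 2649 CPM with Ifng and 2625 and 2679 CPM without. In cells with neither, B2m stood at 3318 and 3104 CPM with Ifng and 3195 and 3115 CPM without.

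Of 31 genes of the pathway list tested 7 were higher with Ifng and 1 lower, against 14.0% of all genes called. Irf8 was higher by 0.80 ± 0.08 (47.8 and 44.2 against 25.1 and 29.6 CPM), Socs1 by 0.43 ± 0.04 and Ifngr1 by 0.38 ± 0.03, and Ifngr2, the signalling chain of the receptor, was lower on 17 and 7 UMIs (-1.13 ± 0.34). Without the library as a block 1 member was called (13 at an unadjusted p under 0.05), by DESeq2 5 were higher (14 unadjusted), and with no thinning 7 were higher and 3 lower. The counts over all genes in the same settings are in the closing section.

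Few cells had Epcam or Lyz2 and no Cd3 UMI at 1500 UMIs. Epcam, an adhesion molecule of epithelia, was detected without any Cd3 or Lyz2 UMI in 10 and 12 cells. When all UMIs were counted the class held 2 and 1 cells, so most of the 10 and 12 lacked a Cd3 or Lyz2 UMI only after thinning. Leaving out barcodes found in both libraries left 3 and 4 of them, so for most of this class the libraries are not shown to be independent. The 11 epithelial markers summed to 16333 and 12389 CPM in them, with Krt8 in all 10 cells of replicate 1 and 8 of 12 of replicate 2. B cell markers were at 0, macrophage markers at 0 and 111 CPM and dendritic markers at 0 and 167 CPM. In replicate 2, 1 cell carried basophil or mast cell markers that made up 20389 CPM of the class.

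These cells were compared with Cd3-detected cells without Epcam or Lyz2 (14721 and 14138 cells). Of 32 members tested, 4 class II genes were higher and 7 class I genes lower, where 1.45% of 10937 genes were called higher, 2.45% lower and 3.90% in all. Cd74 reached 3267 and 7444 CPM (49 and 134 UMIs) against 27.6 and 36.2 CPM, a log2 fold change of 6.68 ± 0.34 (adjusted p = 1.5e-82). All 10 cells of replicate 1 and 9 of the 12 of replicate 2 had a Cd74 UMI, 100% (95% exact interval 69.2 to 100) and 75.0% (42.8 to 94.5), against 2.72% and 2.67% of Cd3-detected cells at the same 1500 UMIs. In replicate 2 a single cell held 90 of the 134 UMIs, and without it the level was 2667 CPM, below that of replicate 1.

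The chains H2-Aa (5 and 20 UMIs, 5.75 ± 0.79), H2-Eb1 (8 and 19 UMIs, 5.94 ± 0.77) and H2-Ab1 (8 and 6 UMIs, 3.03 ± 0.77) were also higher. H2-DMb1 had 0 UMIs in both libraries, which allows up to 200 and 167 CPM, and H2-DMa 1 UMI in each. So Cd74 and the chains were detected in these cells and the H2-DM genes were at or under what this number of cells can show.

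Among class I genes, H2-K1 was at 1933 and 833 CPM against 3679 and 3888 CPM (-2.14 ± 0.30) and H2-D1 at 2133 and 3056 against 8334 and 7830.0 CPM (-2.27 ± 0.27). B2m was lower by -1.70 ± 0.30. H2-Q4 (0 and 1 UMIs), H2-Q7 (3 and 2), H2-T23 (2 and 2) and H2-T22 (3 and 1) were also called lower. After a second random thinning H2-Q4 (-1.81, adjusted p = 0.059) and H2-T23 (-1.16, adjusted p = 0.48) did not pass, nor did H2-T22 under RLE size factors (adjusted p = 0.051), no low-count filter (0.083), DESeq2 (0.093) or 1000 UMIs a cell (0.91). None of the 5 immunoproteasome genes passed, with Psmb8 at 1067 and 944 against 908 and 897 CPM. Without normalization factors, H2-K1 and H2-D1 were lower by -1.49 ± 0.30 and -1.62 ± 0.27, B2m by -1.05, and the share of higher genes among all genes called was 65.7% in place of 37.2%, with 20.7% when factors came from all genes tested. Without barcodes of both libraries Cd74 kept its call (7.41 ± 0.57) as did H2-D1 (-1.495 ± 0.40, adjusted p = 0.046), and H2-K1 (adjusted p = 0.10) and B2m (0.94) lost theirs. Without the 8% of cells with the most UMIs 3 members were called, all higher, and without thinning none was (edgeR, 0 at an unadjusted p under 0.05).

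Lyz2 encodes lysozyme of myeloid cells, and it was detected without Cd3 or Epcam in 30 and 38 cells, and in 8 and 9 when all UMIs were counted. By their markers most were not macrophages. The 7 neutrophil markers took 256622 and 354333 CPM, with S100a8 in 23 of 30 and 32 of 38 cells. Macrophage markers summed to 9844 and 12684 CPM, of which Lyz2 alone made 9267 and 12474 CPM, and basophil or mast cell markers were at 0.

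The class II UMIs of this class came from a handful of cells. Only 7 of 30 and 8 of 38 cells had any class II UMI, 23.3% (9.93 to 42.3) and 21.1% (9.55 to 37.3), and 3 and 2 cells with at least 5 such UMIs held 96.1% and 94.0% of them. Cd74 had 91 and 74 UMIs, 2022 and 1298 CPM, of which 1 cell held 36 and 64. Without that cell replicate 2 had 180.2 CPM.

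Against the same Cd3-detected cells as before, 6 of 32 members tested were higher and 9 lower, where 2.72% of 11011 genes were called higher, 2.88% lower and 5.60% in all. The higher ones were Cd74 (5.79 ± 0.26), H2-Aa (5.81 ± 0.61), H2-Eb1 (5.28 ± 0.72), H2-Ab1 (2.86 ± 0.48), H2-DMa (2.41 ± 0.58) and H2-DMb1 (7.26 ± 1.24, on 12 and 1 UMIs). H2-DMa, with 11 and 5 UMIs, was found in 6 and 5 cells and so was less concentrated than Cd74, found in 4 and 3.

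The 9 lower members were of the class I pathway. H2-K1 was at 1089 and 1193 against 3679 and 3888 CPM (-1.61 ± 0.23), and H2-D1 at 4689 and 3842 against 8334 and 7830.0 CPM (-0.82 ± 0.22, adjusted p = 0.033). H2-D1 was still detected in all 30 and in 37 of 38 cells. B2m (-0.89 ± 0.22), Psme1 (-1.08 ± 0.29), Psmb8 (-1.41 ± 0.28), H2-Q4, H2-Q7, H2-T23 and H2-T22 made up the rest. The share of UMIs taken by neutrophil genes moved with these levels, and its part in them was not tested. No member was called without the 8% of cells with the most UMIs, nor at 1000 UMIs a cell (edgeR, 12 and 18 members at an unadjusted p under 0.05), and DESeq2 called 9.

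Both sets of other cells were compared with the same Cd3-detected cells, so only their own values can be set side by side. Cd74 was at 3267 and 7444 CPM in Epcam-detected and 2022 and 1298 CPM in Lyz2-detected cells, and H2-D1 at 2133 and 3056 CPM in the former and 4689 and 3842 CPM in the latter. For H2-D1 the Lyz2-detected values were above the Epcam-detected ones in both libraries. The difference between the sets was not tested.

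**Figure D5:**
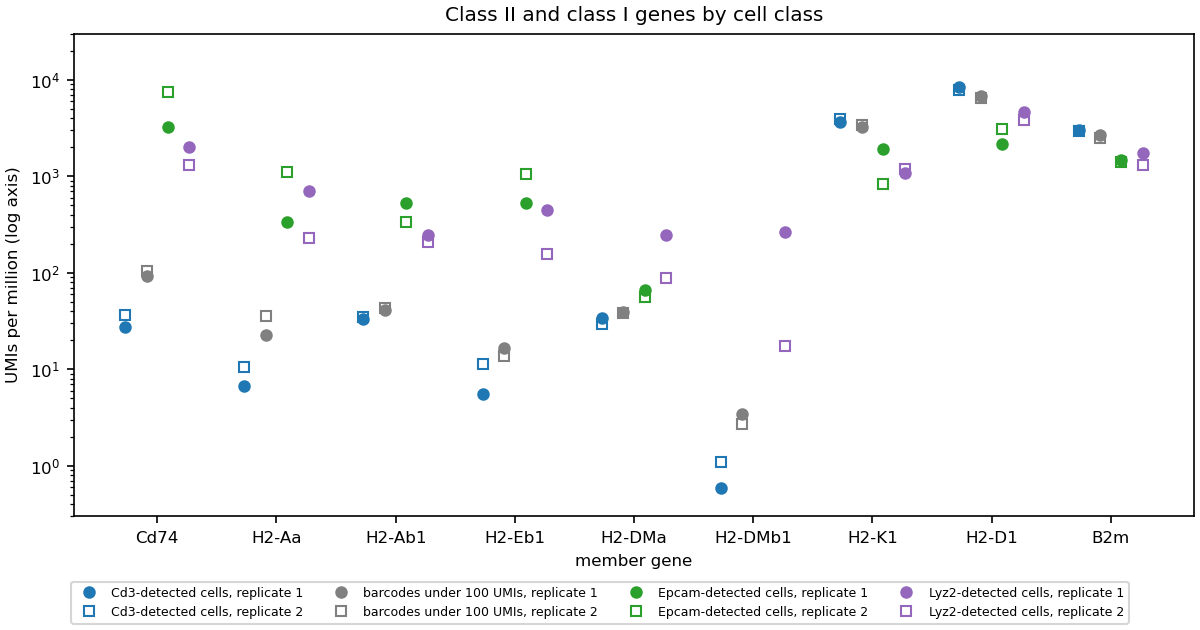
Levels in CPM (log axis) of 6 class II genes and of H2-K1, H2-D1 and B2m (x axis) in Cd3-detected cells without Epcam or Lyz2, barcodes under 100 UMIs, Epcam-detected cells and Lyz2-detected cells, with a filled circle for replicate 1 and an open square for replicate 2. Cd74 lies at 27.6 and 36.2 in Cd3-detected and at 3267 and 7444 in Epcam-detected cells, and H2-DMb1 has no Epcam point because it was at 0 there.

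Of the pathway list, Ifngr1 (1 and 0 UMIs) was the single gene called in Epcam-detected cells and was lower. In Lyz2-detected cells 2 genes were higher and 3 lower. Ifngr2 (7 and 4 UMIs, 6.61 ± 1.11) and Ctss (31 and 6 UMIs, 2.84 ± 0.48) were higher, Socs1 (0 and 1 UMIs, -3.92 ± 0.90) was lower, and Tapbpl, which edits peptides on class I, was called lower at 0 UMIs in both.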

How the data were processed

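The members, gene lists and comparisons were chosen with earlier results of these data known. The deposited values are raw UMI counts without normalization, which the authors made with Cell Ranger 3.1.0 against mm10, per the submitters' processing notes and the file headers. The hashtag libraries were not used, since they hold 0 hashtag features. Cells were filtered and thinned to 1500 UMIs (seed 20) and summed by library and class, and edgeR's quasi-likelihood test was fitted to the 4 sums of each comparison across all genes that passed filterByExpr, leaving out the genes that define the classes, with Benjamini-Hochberg adjustment and 1 residual degree of freedom. The library was a block, since both classes of a pair came from the same library, as the replicate number in the labels says. TMM factors came from genes with at least 10 UMIs in every sum. The plan had TMM over all genes tested, which was biased on simulated counts for the small Epcam class. On simulated counts with a log2 change of 1, 76.0% of changed genes were recovered for the Itgae and Cd8a split. The shares were 86.0% for Tcf7, 82.5% for Ifng, 40.0% for Epcam and 49.0% for Lyz2. At a log2 change of 0.5 the shares were 41%, 24%, 36.1%, 16% and 3% in the same order. So a smaller change that did not pass is not shown to be absent. The simulation gave every gene the same dispersion. In the Epcam simulation the median bias of the fold changes was still -0.297 on the log2 scale.

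Shares carry Clopper-Pearson 95% intervals. Where a gene had 0 UMIs, 3 UMIs gave the upper limit. Named with values are the members at 10 CPM or more in any detected class, 31 genes, and up to 4 genes of the pathway list per comparison, those with the largest change past the threshold. Any other gene named was picked with its values in view. Doublets were not called, and the cells with the most UMIs were left out as an alternative. Tools were R 4.3.3 with edgeR 4.0.16 and DESeq2 1.42.0, and Python 3.11.15 with pandas 2.3.3, scipy 1.17.1, numpy 2.4.6 and matplotlib 3.10.9. Gene positions are from GENCODE, matched by identifier for all 46 members. Alternatives are given in the closing section. The result of 1 gene of the pathway list is not reported here.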

Additional observations from a re-analysis of the deposited data

How the results depend on the processing

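Each alternative was tried on the comparisons it applies to, changing one choice at a time. Counts of members called, 25 for Itgae and Cd8a, 9 for Tcf7, 16 for Ifng, 11 for Epcam and 15 for Lyz2 cells, stayed within 1.5 times under RLE size factors, both other scalings, no low-count filter and a second thinning. DESeq2 called 13, 2, 5 and 9 members for Itgae and Cd8a, Tcf7, Ifng and Lyz2, and 1414, 293, 282 and 389 genes. With 1000 UMIs a cell 16, 1, 7 and 0 members were called for Itgae and Cd8a, Tcf7, Epcam and Lyz2, and 1961, 431, 757, 255 and 16 genes in the 5 comparisons. Without thinning the genes called were 7159, 3258, 889, 1 and 265, and the members 10, 0 and 8 for Ifng, Epcam and Lyz2.

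Without the replicate block, members called were 19 for Itgae and Cd8a, 1 for Tcf7 and 1 for Ifng, and genes called were 3053, 220, 114 and, for Epcam, 764. Leaving out the 8% of cells with the most UMIs left 40 genes and 3 members for Epcam and 0 and 0 for Lyz2 (edgeR, 393 genes at an unadjusted p under 0.05). Without barcodes of both libraries 46 genes and 4 members were called for Epcam. With at least 3 UMIs of the marker, 284 genes were called for Epcam, and 184 genes and 1 member for Lyz2. Whatever the Cd3 count, 4 members were called for Epcam (247 and 175 cells) and 6 for Lyz2 (239 and 453 cells). The share over all genes in this setting is not given, so these counts are not read as a result about the members. TMM over all genes tested called 687 genes for Epcam.

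3 calls changed sign, H2-DMb1 with Ifng to 0.14 and Psmb8 in Lyz2-detected cells to 0.022 without thinning, and H2-Aa with Ifng to 0.18 without the Cd74-rich cells, an alternative chosen after seeing the data. Without thinning, the mean share of cells with a UMI was 99.5% for H2-K1, 12.5% for H2-Ab1 and 5.69% for Cd74. The cause of these changes was not tested. Leaving out either library gave no test. The few Epcam- and Lyz2-detected cells limit what can be seen of genes under 200 CPM.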
